A study of Mus musculus with 79 samples.

Results

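Mt1 and Mt2 encode the metallothioneins 1 and 2, and they are described here across differentiating mouse embryonic stem cells that lack either the TET enzymes or the DNA methyltransferases. They are 2 of the 35230 genes in the deposited expression table and were taken from it by symbol. Both genes were chosen by their levels across these groups, so their levels, differences and overlaps are given as a description, with no test. Metallothioneins are small, cysteine-rich cytosolic proteins that bind zinc and copper and can take up toxic metals such as cadmium. Their genes are switched on by zinc through the zinc-finger factor MTF1, which binds metal response elements in their promoters, and they also respond to oxidative stress and glucocorticoids. Mt1 is one of the genes at which methylation of DNA was first tied to silencing in cultured mouse cells. No methylation data were analysed here.

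RNA was sequenced from cells grown with 2i and LIF, the inhibitors and cytokine that hold embryonic stem cells (ESC) in the naive state, and from cells moved on to epiblast-like cells (EpiLC) or to embryoid bodies (EB), aggregates in which germ layer derivatives form. The lines, 4 in number, were TET_KO (genotype TET1/2/3_KO, a triple knockout of Tet1, Tet2 and Tet3, whose products oxidise 5-methylcytosine), its parental line TET_WT, DNMT_KO (genotype DNMT1/3a/3b_KO, a triple knockout of Dnmt1, Dnmt3a and Dnmt3b, whose products methylate cytosine) and its parental line DNMT_WT. Each was sampled as ESC at D0, EpiLC at D1 and D2, and EB at D2, D4, D6 and D8, which gives 28 groups and 79 libraries. There were 3 libraries in 23 groups and 2 in the other 5, namely TET_KO EB D2, DNMT_KO EB D2, and DNMT_WT in ESC D0, in EpiLC D1 and in EB D4. Each genotype is a single line, so an effect of the knockout and a difference between lines cannot be told apart. The labels do not say that libraries of a group came from separate cultures, and p-values given below measure only the spread between these libraries.

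Library depth, rebuilt from the smallest steps in the values, was 7760000 to 13890000 reads on genes. Mt1 had 137 to 5172 reads per library and Mt2 127 to 10998, and counting error weighs most where reads are fewest. EB D6 libraries of TET_WT, TET_KO and DNMT_WT had 137 to 285 reads of Mt1 and 127 to 244 of Mt2. Dnmt1, the maintenance methyltransferase, was at 3.63 to 6.49 RPKM (reads per kilobase of exon, scaled to library depth) in DNMT_KO libraries and 39.4 to 63.2 in DNMT_WT libraries. Tet1 passed the test below for a lower level in TET_KO at 4 of the 7 conditions, Tet2 at 1 and Tet3 at 0. Which exons were deleted is unknown here, so reads outside them do not check the TET labels. One library, TET_WT replicate 2 at EB D4, had 15.1% of its reads on Gm42418, a gene that overlaps ribosomal RNA sequence. It was also the lowest of its group for Mt1 and Mt2, and the Mt1 and Mt2 values of EB D4 that rest on it are given with and without it. No call of a gene named below was lost without it.

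In these files Mt1 (ENSMUSG00000031765) lies at chr8:94179082-94180327 and Mt2 (ENSMUSG00000031762) at chr8:94172664-94173568, both on the plus strand of GRCm38. Both have 3 exons in their reference transcripts. The sequence upstream is shown because the 2 genes are read from separate promoters and move together in the data. The windows are the 250 bases before each RefSeq start in GRCm38.p6, plus strand, and capitals mark matches to the core of the metal response element, searched on both strands as TGCACNC and TGCGCNC:
Mt1 chr8:94178839-94179088: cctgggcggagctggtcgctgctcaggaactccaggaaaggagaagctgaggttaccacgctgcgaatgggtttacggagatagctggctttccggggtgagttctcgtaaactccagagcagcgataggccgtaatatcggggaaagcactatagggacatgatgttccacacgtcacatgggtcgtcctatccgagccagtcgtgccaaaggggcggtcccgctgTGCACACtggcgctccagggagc
Mt2 chr8:94172368-94172617: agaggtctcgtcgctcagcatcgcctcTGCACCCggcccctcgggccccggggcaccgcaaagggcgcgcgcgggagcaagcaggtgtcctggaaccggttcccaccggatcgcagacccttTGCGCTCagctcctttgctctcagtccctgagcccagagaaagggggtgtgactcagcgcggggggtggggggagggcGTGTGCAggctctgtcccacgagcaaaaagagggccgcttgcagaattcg

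The Mt1 window held 1 match, at -23 to -17 from the RefSeq start, and the Mt2 window held 3, at -223, -128 and -50. Of 32851 RefSeq promoter windows of this length, 21.4% held at least 1 such match and 1.26% at least 3. The Mt2 window also held 1 match to the antioxidant response core TGACNNNGC, TGACTCAGC at -79 to -71, which overlaps none of the other matches, and 10.2% of windows held one. The Mt1 window had none on either strand. CpG dinucleotides, the sites that DNMT enzymes methylate, numbered 17 in the Mt1 window and 21 in the Mt2 window, against a median of 6 over all windows. At least as many were found in 23.5% and 16.3% of windows. Annotated transcripts also start elsewhere, for Mt1 at 122 and 152 bases after its RefSeq start. For Mt2 they start at 46 bases after its own, which is the reference transcript, and at 242 bases. Bases after the RefSeq starts were not searched. These windows thus describe the sequence before 1 start of each gene, and their counts do not rank the 2 promoters. These matches are letters only and say nothing of binding.

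The 2 coding sequences are shown because near-identical copies could share reads. Each has 186 bases with its stop codon, from GENCODE vM21 transcripts on GRCm38, and capitals mark the bases at which they differ:
Mt1-201: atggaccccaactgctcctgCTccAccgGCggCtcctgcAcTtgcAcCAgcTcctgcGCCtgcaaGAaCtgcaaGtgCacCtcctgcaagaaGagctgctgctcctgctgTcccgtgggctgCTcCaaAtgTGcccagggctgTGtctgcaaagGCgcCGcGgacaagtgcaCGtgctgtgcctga
Mt2-201: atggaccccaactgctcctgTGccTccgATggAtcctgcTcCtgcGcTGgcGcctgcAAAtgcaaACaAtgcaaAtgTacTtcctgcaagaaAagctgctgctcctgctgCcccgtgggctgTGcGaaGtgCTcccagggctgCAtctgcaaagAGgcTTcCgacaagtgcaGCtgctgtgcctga

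They differed at 38 bases (79.6% identity), and the longest stretch in common was 20 bases, also over the whole transcripts. The unit of the 2 genes needs a second remark. RPKM divides by a length, which for Mt1 came out at 1246 bases, since 1 annotated Mt1 transcript runs through the introns, and for Mt2 at 588 bases. Their spliced reference transcripts have 549 and 511 bases. Mt1 levels are therefore low by construction against Mt2 levels, and levels are compared across groups within a gene.

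Mt1 and Mt2 were abundant in ESC and EpiLC of every line and much lower in parental EB at D6. There they ranked between 1562 (Mt2 in DNMT_WT) and 3746 (Mt1 in TET_WT) of 35230 genes. The largest contrast was in DNMT_KO, where neither gene had the drop in EB. Mean Mt1 ran from 323 ± 6.55 RPKM (SD, n = 3) in TET_WT ESC D0 to 11.2 ± 1.29 (n = 3) in TET_KO EB D6, a 29.0-fold range. Mean Mt2 ran from 1485 ± 186 (n = 3) in DNMT_KO EpiLC D2 to 21.96 ± 1.92 (n = 3) in TET_WT EB D6, a 67.6-fold range. By RPKM, the highest rank of Mt1 was 100 of 35230 genes, in TET_WT ESC D0. That of Mt2 was 7, in both DNMT_WT and DNMT_KO EpiLC D2.

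**Figure D1:**
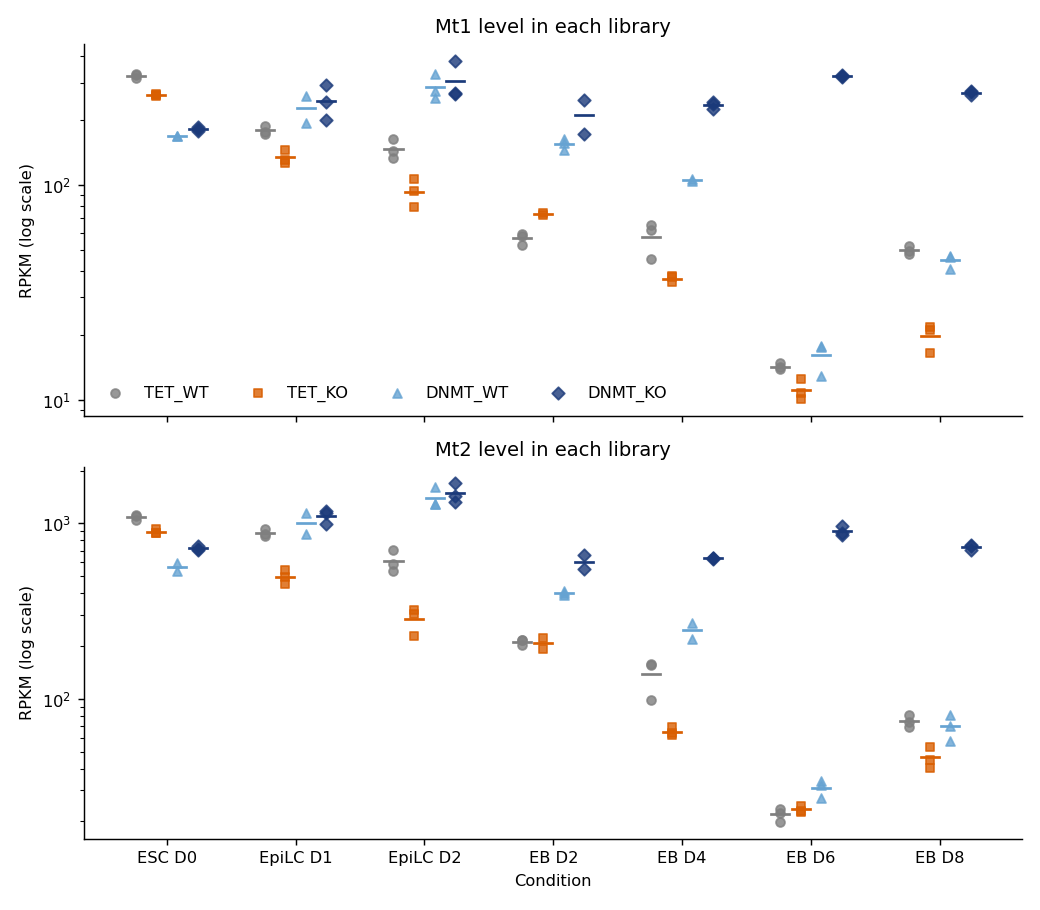
RPKM of Mt1 (top) and Mt2 (bottom) in each of the 79 libraries on a log axis, by condition, with 1 symbol per line and a short bar at each group mean. TET_WT, TET_KO and DNMT_WT come down to 10.1 to 17.8 RPKM for Mt1 at EB D6, and DNMT_KO stays at 318 to 326.

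The order of the 28 groups was dense. For Mt1, the libraries of 17 of the 27 neighbouring pairs in the order overlapped, and for Mt2 those of 16. The highest 13 groups of Mt1, from TET_WT ESC D0 to DNMT_WT ESC D0 (169 ± 0.553, n = 2), formed an almost unbroken run, in which 11 of the 12 steps were between overlapping groups. All 7 DNMT_KO groups lay in that run. The lowest 4 groups of Mt1 were TET_KO EB D8 (19.9 ± 2.89, n = 3), DNMT_WT EB D6 (16.2 ± 2.77, n = 3), TET_WT EB D6 (14.3 ± 0.475, n = 3) and TET_KO EB D6. For Mt2 the lowest 4 were TET_KO EB D8 (46.3 ± 6.504, n = 3), DNMT_WT EB D6 (31.0 ± 3.58, n = 3), TET_KO EB D6 (23.4 ± 0.963, n = 3) and TET_WT EB D6, of which the last 2 overlapped. Across the 28 group means of log2(RPKM + 0.5) the 2 genes had a Pearson r of 0.98 and a Spearman rho of 0.96, as a description over groups that share lines and conditions.

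The parental lines stood apart at most conditions before EB D6. In ESC D0 the TET_WT libraries had 329, 324 and 316 RPKM of Mt1 and the DNMT_WT libraries 169 and 169, so the TET_WT mean was 1.91-fold as high. Mt2 was at 1099, 1044 and 1119 RPKM in TET_WT and 537 and 595 in DNMT_WT, 1.92-fold as high. All TET_WT libraries were above all DNMT_WT libraries. The order was the opposite in EpiLC D2, where the ratio of TET_WT to DNMT_WT was 0.515 for Mt1 and 0.435 for Mt2, without overlap. In TET_WT both genes were lower in EpiLC D2 than in ESC D0 (log2 difference -1.13 for Mt1 and -0.85 for Mt2), and in DNMT_WT Mt1 was higher by 0.75, with no overlap in either line. The 2 parental lines came together in EB D6, at 14.3 and 16.2 RPKM of Mt1, with libraries that overlapped, and at 21.96 and 31.0 RPKM of Mt2, without overlap.

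The EB course had a low point at D6 in 3 lines. In TET_WT the Mt1 mean was 57.5 ± 10.6 RPKM in EB D4, 14.3 ± 0.475 in EB D6 and 49.8 ± 2.25 in EB D8 (n = 3 each). Without replicate 2 the EB D4 mean was 63.5 RPKM (n = 2). The D8 libraries all lay above the D6 libraries, 3.48-fold by their means. In DNMT_WT the Mt1 mean at EB D8 was 2.76-fold that at EB D6, and in TET_KO 1.78-fold, again without overlap. In DNMT_KO the D8 mean was 0.838 times the D6 mean, with no overlap, and the lowest EB group was EB D2 at 211 ± 53.1 RPKM (n = 2).

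DNMT_KO had higher levels of both genes than DNMT_WT, and the difference was largest in EB D6. In EB D6 the Mt1 libraries of DNMT_KO had 318, 326 and 322 RPKM and those of DNMT_WT 12.96, 17.7 and 17.8. Mt2 was at 882, 972 and 854 RPKM in DNMT_KO and at 34.0, 32.1 and 27.1 in DNMT_WT. Every DNMT_KO library was far above every parental library. The means differed 19.9-fold for Mt1 and 29.1-fold for Mt2, and the log2 differences of 4.29 and 4.84 ranked 36 and 13 from the top among 15267 tested genes.

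In EB D8 the DNMT_KO libraries had 275, 263 and 272 RPKM of Mt1 against 46.2, 40.7 and 47.0 in DNMT_WT, 6.05-fold. The Mt2 libraries had 757, 709 and 741 RPKM against 57.6, 69.8 and 81.3, 10.6-fold. The groups did not overlap, and the smaller fold at D8 went with parental levels above those of D6. The ranks from the top were 278 for Mt1 and 118 for Mt2. In EB D4 the Mt1 libraries had 226, 245 and 238 RPKM against 107 and 105, and the Mt2 libraries 638, 636 and 625 against 272 and 220. Neither gene overlapped there, and the folds were 2.23 and 2.58.

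The earlier conditions showed small or no separation. In EB D2 the Mt1 libraries of DNMT_KO had 249 and 174 RPKM against 156, 145 and 165 in DNMT_WT, and the Mt2 libraries 663 and 546 against 400, 413 and 389. The 2 DNMT_KO libraries of Mt1 lay far apart, and the log2 difference of 0.42 became 0.16 without the higher of them and 0.68 without the lower. For Mt2 it was 0.59. In ESC D0 the log2 differences were 0.11 for Mt1 and 0.35 for Mt2, without overlap, and in EpiLC D1 and D2 they were 0.08 to 0.15, with overlapping libraries. DNMT_KO libraries were thus above DNMT_WT libraries at 5 of 7 conditions for each gene. The share of all tested genes that lay higher in DNMT_KO without overlap was 25.4% at ESC D0, 19.9% at EB D2, 31.8% in EB D4, 39.6% in EB D6 and 35.3% in EB D8.

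**Figure D2:**
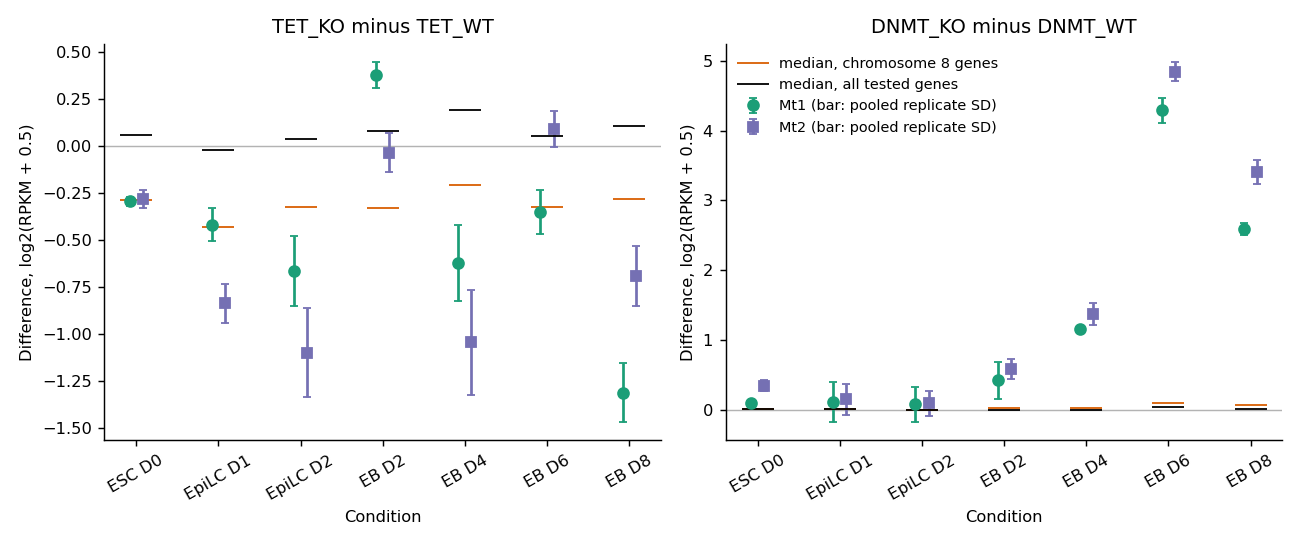
Differences in log2(RPKM + 0.5) of Mt1 and Mt2 between knockout and parental line by condition, for TET_KO (left) and DNMT_KO (right), with the pooled replicate SD as bars and horizontal dashes for the medians of all tested genes and of tested chromosome 8 genes. The 2 panels have different scales: DNMT_KO reaches 4.84 at EB D6, and TET_KO has its lowest value at -1.31.

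TET_KO had lower levels of both genes than TET_WT at most conditions. In EB D8 the Mt1 libraries of TET_KO had 21.2, 16.6 and 21.9 RPKM against 47.8, 49.3 and 52.3 in TET_WT, a log2 difference of -1.31. Mt2 was at 40.5, 44.9 and 53.3 RPKM against 69.2, 74.1 and 80.6, a log2 difference of -0.69. Neither gene overlapped. In EpiLC D2 the Mt1 libraries had 93.9, 107 and 78.7 RPKM against 134, 164 and 145, and the Mt2 libraries 304, 321 and 227 against 532, 703 and 585. The log2 differences were -0.67 and -1.10, again without overlap.

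In EB D4 the Mt1 libraries of TET_KO had 37.3, 37.7 and 35.3 RPKM against 65.4, 45.4 and 61.6, and the Mt2 libraries 69.3, 61.9 and 64.0 against 156, 98.6 and 158. The differences of -0.62 and -1.04 became -0.78 and -1.27 without TET_WT replicate 2, the library with many Gm42418 reads. The differences at EpiLC D1 were -0.42 for Mt1 and -0.84 for Mt2, and at ESC D0 -0.29 and -0.28, without overlap. Mt1 and Mt2 parted at EB D2, where Mt1 was higher in TET_KO by 0.38 without overlap and Mt2 overlapped at -0.03. They parted again at EB D6, with -0.35 for Mt1 without overlap and 0.09 for Mt2 with overlap. TET_KO was thus lower at 6 conditions and higher at 1 for Mt1, and lower at 5 for Mt2. Of all tested genes, 21.2% were lower in TET_KO without overlap at ESC D0, 33.5% at EpiLC D1, 22.1% at EpiLC D2, 12.3% in EB D4, 21% in EB D6 and 21.3% in EB D8, and 39.8% were higher at EB D2.

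Genes of chromosome 8, where Mt1 and Mt2 lie, were lower as a whole in TET_KO. The median over 821 tested genes of that chromosome was between -0.43 and -0.21 at the 7 conditions, against -0.02 to 0.19 over all tested genes. In ESC D0 the Mt1 and Mt2 differences lay -0.01 and 0.00 from the chromosome 8 median. They lay 0.01 and -0.41 from it at EpiLC D1, -0.34 and -0.77 at EpiLC D2, -0.42 and -0.84 at EB D4, -0.03 and 0.41 at EB D6, and -1.03 and -0.41 at EB D8. Without TET_WT replicate 2 the EB D4 values were -0.44 and -0.93. At EB D2 Mt1 lay 0.71 above it and Mt2 0.29 above it. The part of the chromosome 8 shift in the Mt1 and Mt2 values was not tested. In DNMT_KO the chromosome 8 median was between 0.00 and 0.10, and the Mt1 and Mt2 differences at EB D6 lay 4.19 and 4.74 above it.

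The ratio of Mt2 to Mt1 within a library was not fixed. On the RPKM scale its group mean was 1.497 ± 0.0484 (SD, n = 3) in TET_WT EB D8 and 4.94 ± 0.451 (n = 3) in DNMT_KO EpiLC D2. Divided instead by the spliced transcript lengths, the same ratios were 0.759 and 2.50, so which gene counts as the more abundant in TET_WT EB D8 depends on the length used. The same holds for DNMT_WT EB D8, at 0.793 by the spliced lengths, while TET_KO and DNMT_KO EB D8 were at 1.19 and 1.38. In EB D8 the ratio was 2.72 ± 0.0271 in DNMT_KO and 1.56 ± 0.275 in DNMT_WT (n = 3 each), and the libraries did not overlap. In EpiLC D1 it was 3.68 ± 0.0899 in TET_KO and 4.92 ± 0.0285 in TET_WT (n = 3 each), also without overlap. The 6 highest ratios were those of EpiLC groups of TET_WT, DNMT_WT and DNMT_KO, and the 3 lowest those of TET_WT EB D6, TET_WT EB D8 and DNMT_WT EB D8.

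**Figure D3:**
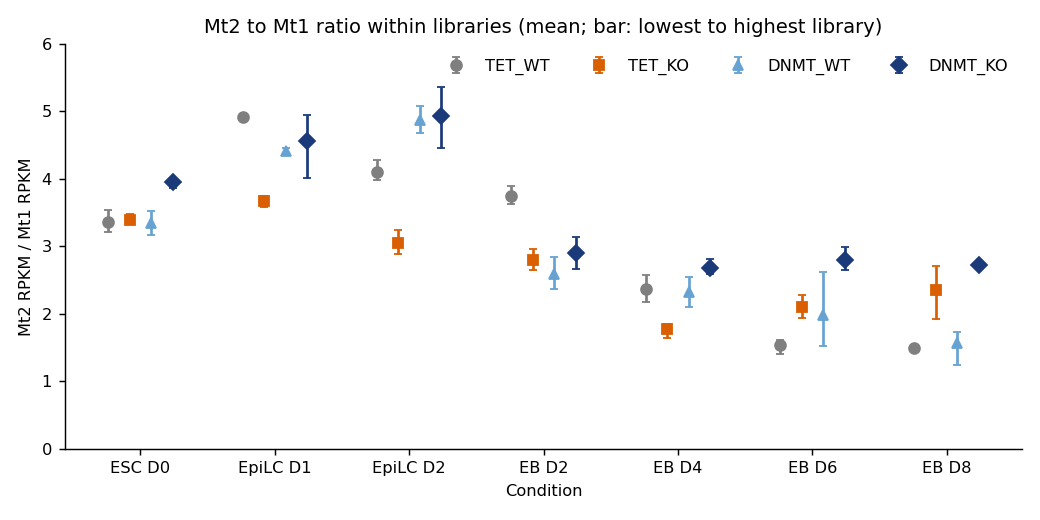
Ratio of Mt2 RPKM to Mt1 RPKM within libraries by condition and line, as the group mean with a bar from the lowest to the highest library. The means lie between 1.497 and 4.94, with the highest in DNMT_KO EpiLC D2 and the lowest in TET_WT EB D8.

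Markers of cell type differed in both knockouts, and not all of them moved with the Mt1 and Mt2 values. The 10 naive pluripotency markers, among them Nanog, Esrrb and Klf4, summed to 560 to 587 RPKM in DNMT_KO EB D6 and to 62.4 to 68.2 in DNMT_WT. At EB D8 the sums were 549 to 571 and 47.7 to 52.6. By the limma test (Benjamini-Hochberg adjusted p under 0.05 and a change of at least 1 in log2), 7, 8 and 7 of these 10 markers rose in DNMT_KO at EB D4, D6 and D8, and 1 fell, at D6. The shares of all tested genes called there in either direction were 5.82%, 17.9% and 18.9%. All 10 naive markers were at 1 RPKM or more in DNMT_KO at those times. In DNMT_WT all 10 were so at EB D4, and 7 at EB D6 and at EB D8. At EB D4, 8 of 9 primitive erythroid, 6 of 8 endothelial and 10 of 14 visceral endoderm and yolk sac markers also rose in DNMT_KO. The erythroid markers summed to 125 to 151 RPKM against 12.2 to 16.5. In the visceral endoderm and yolk sac list 1 marker fell, and the sums overlapped, at 35.2 to 39.2 RPKM against 29.4 to 39.7. The 9 primitive erythroid markers all fell in DNMT_KO EB D8, where they summed to 125 to 152 RPKM against 4450 to 4476, and all 7 tested cardiac markers fell. Of the 14 visceral endoderm and yolk sac markers 3 rose and 8 fell there, with sums of 76.9 to 89.0 RPKM against 606 to 630. Of the 7 formative and primed epiblast markers, 2 fell in DNMT_KO at EB D4, 4 rose and 1 fell at EB D6, and 5 rose at EB D8. In TET_KO EB D8 the same 9 erythroid markers and 12 of 14 visceral endoderm and yolk sac markers fell, and the latter summed to 41.4 to 48.7 RPKM against 901 to 1006 in TET_WT. There 6 of 7 formative and primed epiblast markers and 5 of 7 tested cardiac markers rose, beside 9.98% of all tested genes called. Earlier in TET_KO, 5 of 10 naive markers fell at EpiLC D1, 5 at EpiLC D2 and 6 at EB D2. The shares of all tested genes called at those conditions were 6.62%, 7.9% and 7.41%. The naive marker sum at EpiLC D2 was 160 to 183 RPKM in TET_KO against 337 to 444 in TET_WT. In bulk RNA, a change in the number of cells with high Mt1 and Mt2 and a change in RNA per cell cannot be told apart. The part of cell composition in the Mt1 and Mt2 values was not tested.

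**Figure D4:**
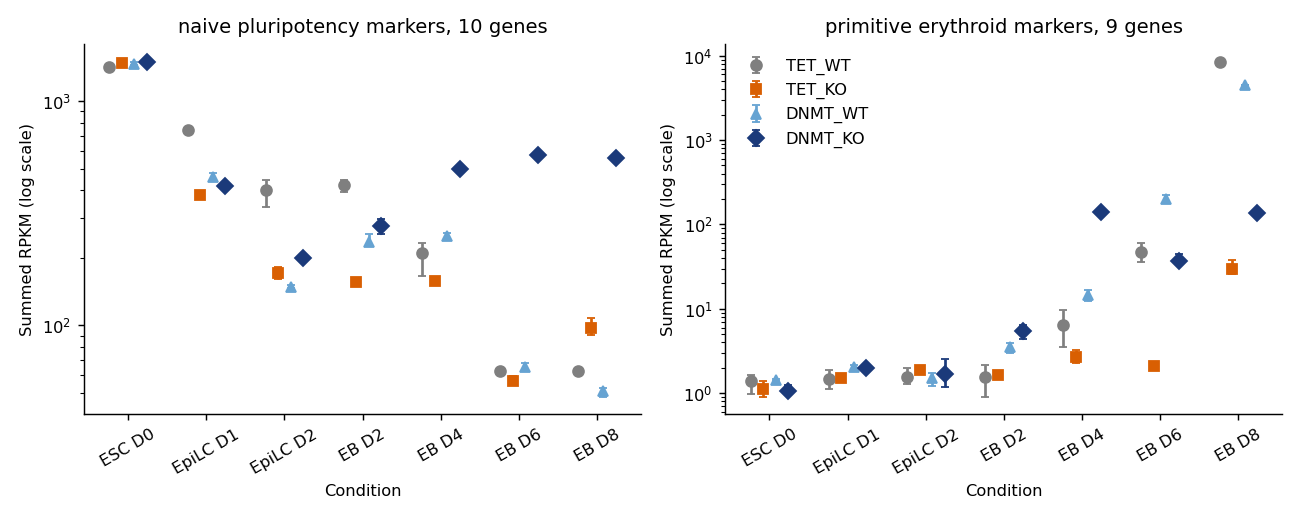
Summed RPKM of the naive pluripotency (left) and primitive erythroid markers (right) by condition and line on log axes, as the group mean with a bar from the lowest to the highest library. DNMT_KO EB at D6 stands at 560 to 587 for the naive markers, above DNMT_WT at 62.4 to 68.2, and is below DNMT_WT for the erythroid markers at D8.

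Other genes followed a pattern close to that of Mt1 and Mt2 over the groups. The genes compared had a mean of at least 5 RPKM in their highest group, and genes with a clone or predicted-gene name were left out. The 8 with the highest Pearson r to the mean of Mt1 and Mt2 over the 28 group means, among 9887 genes compared, were Lncenc1 (0.93), a long noncoding RNA of naive stem cells, Slc28a1 (0.92), Gpa33 (0.92), Hsd17b14 (0.92), Angptl4 (0.92), Morc1 (0.91), Tex14 (0.91) and Cacna1a (0.91). Slc28a1 encodes a nucleoside transporter, Angptl4 an inhibitor of lipoprotein lipase, Cacna1a a calcium channel subunit, and Morc1 and Tex14 are needed in male germ cells. Lncenc1 was at 80.5 RPKM in DNMT_KO EB D6, 1.70 in DNMT_WT EB D6 and 83.7 in DNMT_WT ESC D0. Of the 8 genes, 6 were also in the top 8 by Spearman's rho. The correlation is over groups that share lines and libraries, and the lists for Mt1 alone and Mt2 alone shared 4 of 8 genes.

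The other metallothionein genes lie beside Mt1 and Mt2 on chromosome 8 and were scarce. Mt3, the brain form, had no read in 18 of the 79 libraries, and Mt4, the form of stratified epithelia, in 31. In EB D6 Mt3 had 11, 18 and 20 reads in the DNMT_KO libraries and 0, 0 and 1 in the DNMT_WT libraries, and it rose by limma (adjusted p = 3.37e-07). In EB D8 it had 16, 15 and 27 reads against 0 in all 3 parental libraries (adjusted p = 1.38e-06 by limma). Its fitted change at these times depends on the pseudocount, since parental libraries are at or near 0 reads. In TET_KO EpiLC D2 Mt3 fell by 1.15 on the log2 scale (3.02 ± 0.142 against 7.43 ± 1.75 RPKM, n = 3 each, limma adjusted p = 0.000524), a call that was lost without the libraries numbered 2. Mt4 rose in TET_KO EpiLC D1 (log2 change 1.49, limma adjusted p = 0.0108) and was called nowhere else, and the call was lost with no filter on low values.

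Around the cluster, limma called few other genes. Gm45774, an antisense RNA that overlaps Mt2, rose in DNMT_KO at EB D4, D6 and D8, at D6 from 0.118 ± 0.104 to 4.93 ± 0.533 RPKM (n = 3 each, log2 change 3.14, limma adjusted p = 9.28e-10). The call at D4 was lost with a pseudocount of 1 and without the libraries numbered 3. The library kit keeps strand, but the strand setting of the counting is not given in the sources used here, so reads of Gm45774 and Mt2 cannot be told apart. Nup93, a nuclear pore gene 35482 bases downstream of the Mt1 start, was higher in DNMT_KO EB D6 and D8 by 0.81 and 0.82, under the size threshold (limma adjusted p = 7.71e-09 and 1.98e-09), and fell in TET_KO EpiLC D2 (-1.16, limma adjusted p = 3.49e-06), a call lost under quantile normalization. Gm39228, 4207 bases downstream, rose in TET_KO EpiLC D2 (1.66, limma adjusted p = 0.000328). Nudt21, Ogfod1 and Bbs2, 111128 to 163586 bases upstream, were called in none of the 14 comparisons. In DNMT_KO EB D6 their log2 changes were -0.02, 0.25 and 0.41, against 4.84 for Mt2.

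**Figure D5:**
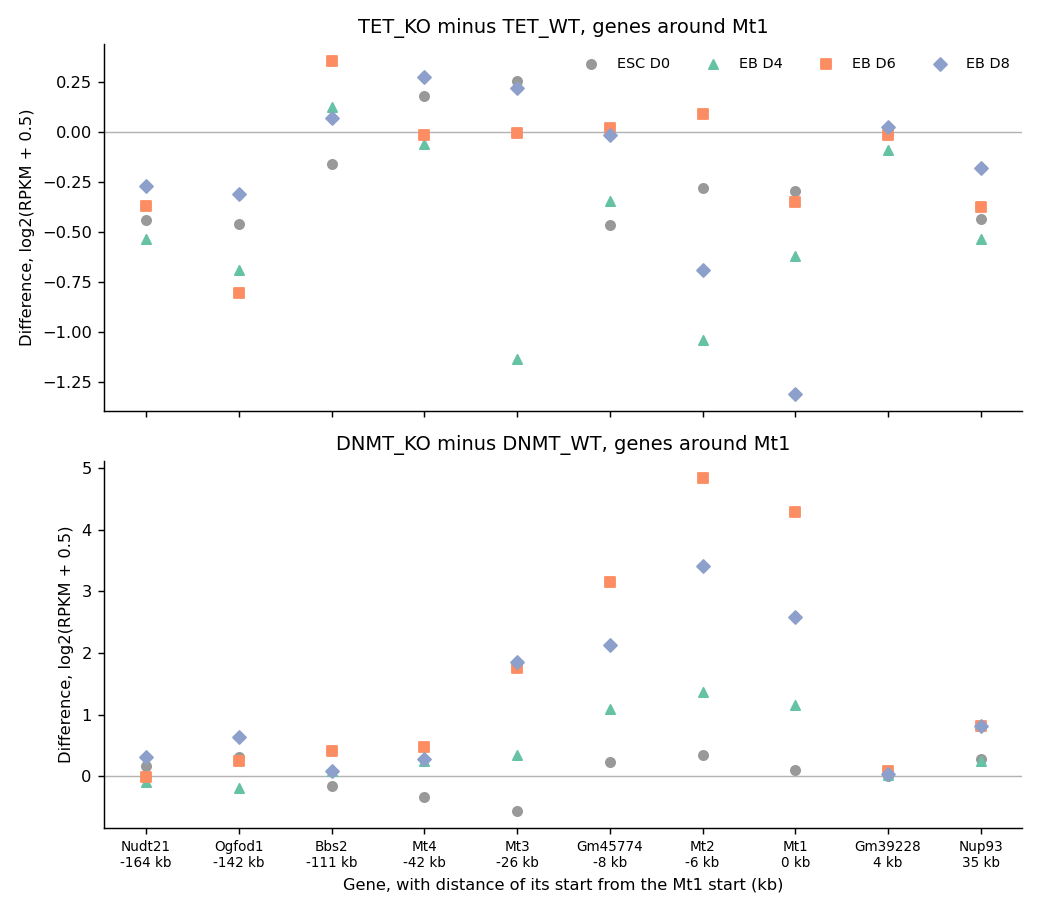
Differences in log2(RPKM + 0.5) between knockout and parental line for the tested genes within 200 kb of Mt1 or Mt2, in order along the chromosome, at ESC D0 and at EB D4, D6 and D8. In DNMT_KO the values at EB D6 are 4.84 for Mt2, 4.29 for Mt1 and 3.14 for Gm45774, and Nudt21 and Gm39228 lie at -0.02 and 0.08.

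Zinc induces Mt1 and Mt2, and the genes that sense and carry it were called at a share near that of all tested genes. Of all tested genes limma called 6.78% in TET_KO at ESC D0, 6.62% at EpiLC D1, 7.9% at EpiLC D2, 7.41% at EB D2, 9.47% in EB D4, 5.02% in EB D6 and 9.98% in EB D8. In DNMT_KO it called 1.03%, 0.95%, 1.59%, 1.14%, 5.82%, 17.9% and 18.9% at the same conditions. Mtf1, which encodes the zinc sensor that induces metallothioneins, was called in none of the 14 comparisons. Its level was 2.55 ± 0.116 RPKM in DNMT_KO EB D6 and 2.04 ± 0.190 in DNMT_WT (n = 3 each), a log2 difference of 0.27 (limma adjusted p = 0.0218) that was under the size threshold. Slc30a1, the zinc exporter that MTF1 also induces, stood at 5.19 ± 0.882 and 4.68 ± 0.401 RPKM in the same groups (log2 difference 0.13, limma adjusted p = 0.306). It fell in TET_KO EpiLC D1 (-1.17, limma adjusted p = 0.0001), a call lost under quantile normalization and without the libraries numbered 3. Slc39a10, a zinc importer that MTF1 represses, was called in none, and its log2 difference in DNMT_KO EB D6 was -0.13 (limma adjusted p = 0.0169).

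Of 25 genes for zinc sensing and transport, 22 were tested, and over the 7 conditions 7 calls were higher and 6 lower in TET_KO, and 4 higher and 4 lower in DNMT_KO, of 154 gene-by-condition tests each. That is 8.44% of the tests in TET_KO and 5.19% in DNMT_KO, near the 7.6% and 6.76% over all tested genes and the 7 conditions. With libraries centred on their medians the TET_KO calls were 5 higher and 7 lower, and with quantile normalization 3 and 5. In DNMT_KO EB D6 the list's median log2 difference was -0.08, against 0.04 over all tested genes. Slc39a14, an importer of zinc and iron, rose there from 2.11 ± 0.192 to 8.95 ± 0.148 RPKM (n = 3 each, log2 change 1.86, limma adjusted p = 2.74e-09). Slc39a8, a related importer, fell there (-2.15, limma adjusted p = 1.98e-09), and Slc30a10, a manganese exporter, fell as well (-1.19, limma adjusted p = 2.05e-06), a call lost with a pseudocount of 1. Slc30a2, a vesicular zinc exporter, rose in TET_KO EB D4 (2.08, limma adjusted p = 2.13e-09). Of 11 copper genes, all tested, 2 calls were lower in TET_KO and 1 higher in DNMT_KO of 77 each, or 2.6% and 1.3%. These were Atp7b, a copper-exporting ATPase encoded on chromosome 8, at EB D6 and D8, and Atox1, a copper chaperone, which rose in DNMT_KO EB D6 from 30.9 ± 0.446 to 68.4 ± 4.47 RPKM (n = 3 each, limma adjusted p = 4.23e-08).

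Genes of the oxidative stress and glutathione response, which can also induce Mt1 and Mt2, were called at a share near that of all tested genes. In DNMT_KO 10 calls were higher and 0 lower, and in TET_KO 0 higher and 10 lower, of 126 tests each over 18 tested genes. The 7.94% of tests called in each is near the share over all tested genes, 6.76% in DNMT_KO and 7.6% in TET_KO. The split by direction over all tested genes was not counted, and a gene could be called at several conditions. With the replicate block 1 TET_KO call was higher and 10 were lower, and without the libraries numbered 2 the counts were 1 and 12. In DNMT_KO EB D6, 5 of 18 were called higher, beside 17.9% of all tested genes called in either direction. The list's median log2 difference there was 0.65, against 0.04 over all tested genes. Nqo1, a quinone reductase, rose there from 0.588 ± 0.231 to 10.8 ± 0.298 RPKM (n = 3 each, log2 change 3.39, limma adjusted p = 1.71e-09). Srxn1, which repairs oxidised peroxiredoxin, rose by 2.57 (limma adjusted p = 4.32e-09), Gpx4, which reduces lipid peroxides, by 1.81 (limma adjusted p = 2.14e-09), and Gsr, glutathione reductase, by 1.67 (limma adjusted p = 3.99e-11). Of the 10 higher calls of DNMT_KO, Srxn1 gave 3, and Nqo1, Gpx4 and Gsr gave 2 each. The 10 lower calls of TET_KO came from 3 genes, Gsr at all 7 conditions, Nqo1 at 2 and Hmox1 at 1, and all 3 are on chromosome 8 with Mt1 and Mt2. Gsr fell in TET_KO by 1.02 (ESC D0) to 1.58 (EB D6) on the log2 scale, and Nqo1 fell by 2.36 at EB D8. The Gsr call at ESC D0 was lost under quantile normalization, and the Nqo1 call at EpiLC D2 was lost under it and without the libraries numbered 2.

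Of 10 glucocorticoid response genes, all tested, 12 calls were higher and 1 lower in TET_KO, and 7 higher and 4 lower in DNMT_KO, of 70 tests each, or 18.6% and 15.7%. The shares over all tested genes and the 7 conditions were 7.6% in TET_KO and 6.76% in DNMT_KO. In DNMT_KO EB D6 the list's median was 0.57, against 0.04 over all tested genes. There 3 of the 10 were called higher and 2 lower, beside 17.9% of all tested genes called. Dusp1, a phosphatase of MAP kinases, rose there from 6.10 ± 0.697 to 24.5 ± 0.998 RPKM (n = 3 each, limma adjusted p = 1.69e-08), and Tsc22d3, the leucine zipper gene GILZ, fell by 1.74 (limma adjusted p = 2.70e-08). Errfi1, a feedback inhibitor of the EGF receptor, rose in TET_KO ESC D0 and in EB of D4, D6 and D8, by 1.12 to 1.22. Ddit4, an inhibitor of mTORC1, rose in TET_KO at EpiLC D1, EB D2 and EB D4, by 2.11, 1.76 and 1.29. With libraries centred on their medians, the Errfi1 calls at ESC D0 and EB D4 and the Ddit4 call at EB D4 were lost. At the conditions where Ddit4 rose, Mt1 was lower in TET_KO at EpiLC D1 and EB D4 and higher at EB D2. Mt2 was lower at EpiLC D1 and EB D4, and its libraries overlapped at EB D2 (-0.03).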

How the data were processed

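The authors deposited 1 table of log2 RPKM per gene for 79 libraries, with gene coordinates on GRCm38, per the file headers. Reads were handled with Trim Galore 0.6.1, cutadapt 1.18 and HISAT2 2.1.0, per the submitters' processing notes. Which tool and annotation counted the reads is unknown (not given in the sources used here). One column, an EpiLC D1 library of DNMT_WT, carries a replicate number found in none of the labels of its group, and it was used as an unnumbered library of its group. Values were turned back into reads with GENCODE vM21 merged exon lengths; a median of 97.1% of low values per library came out whole within 0.1 read, and a gene without reads is written by the authors as 0.9 read.

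Mt1, Mt2, the gene lists and the rules for named genes were chosen with earlier results of these data known. Differences are of mean log2(RPKM + 0.5). For other genes limma 3.58.1 in R 4.3.3 (trend, robust) was fitted per condition on all 4 lines, on 15267 genes of at least 1 RPKM in at least 2 libraries, with Benjamini-Hochberg adjustment; genes were called where adjusted p was under 0.05 and the log2 change 1 or more in size. Named genes are Mt1 to Mt4, Mtf1, Slc30a1, Slc39a10, up to 4 genes per list called most often, tested genes within 200 kb, and the 8 genes most alike in pattern; Hmox1 was named after its values were seen. The fit was checked on simulated data. Of 74 replicate pairs none was identical, and the lowest correlation was 0.981. Alternatives were other pseudocounts, no filter, median centring, quantile normalization, left-out libraries, a replicate block and fits on 2 lines. Amino acid sequences and DNA methylation are not analysed here.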

Additional observations from a re-analysis of the deposited data

Results flagged for a closer look

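Several genes had every knockout library on one side of its parental line in TET_KO and on the other side in DNMT_KO at the same condition. The difference between the 2 knockouts was not tested, and the knockouts do not share a parental line. The share of all tested genes with such opposite sides was not counted, so how unusual it is cannot be told. Separation in 1 direction in 1 knockout alone held for 12.3% to 39.8% of tested genes in the comparisons given above. Genes other than Mt1 and Mt2 are listed only where limma called them in at least 1 knockout at that condition. Each value is the log2 difference of DNMT_KO from its parental line minus that of TET_KO. In ESC D0 the value was 0.40 for Mt1 and 0.63 for Mt2. The TET_KO differences within these values were -0.29 and -0.28, beside a chromosome 8 median of -0.29 in TET_KO. In EB D4 it was 1.77 for Mt1 and 2.41 for Mt2, in EB D6 4.64 for Mt1, and in EB D8 3.90 for Mt1 and 4.10 for Mt2. Mt2 at EB D6 is not among them, since its TET_KO and TET_WT libraries overlapped. Without TET_WT replicate 2 the EB D4 values were 1.93 for Mt1 and 2.64 for Mt2.

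Among the other genes named, glutathione reductase Gsr had such a value at every condition, 1.15 at ESC D0, 1.65 at EpiLC D1, 1.66 at EpiLC D2, 1.57 at EB D2, 2.06 in EB D4, 3.25 in EB D6 and 2.65 in EB D8. Nqo1 and Srxn1 had 3.31 and 1.80 at EB D8. Slc39a14 had 1.94 and Slc30a2 had -2.56 at EB D4. Ddit4 had -2.20 at EB D2 and -2.28 at EB D4, and Tsc22d3 had -1.62 at EB D4. The TET_KO call of Tsc22d3 at EB D4 was lost with a pseudocount of 1, median centring or quantile normalization, and without the libraries numbered 1. Without TET_WT replicate 2 the values at EB D4 were 2.24 for Gsr, 2.15 for Slc39a14, -2.54 for Slc30a2, -2.10 for Ddit4 and -1.59 for Tsc22d3. Mt4 had -2.41 at EpiLC D1, at few reads, and Nup93 had 1.37 at EpiLC D2. Gsr, Nqo1, Nup93 and Mt4 lie on chromosome 8, and all but Mt4 were lower in TET_KO at the conditions given. The part of the chromosome 8 shift of TET_KO in these values was not tested.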

How the results depend on the processing

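Of 28 Mt1 and Mt2 differences, none moved by more than its replicate SD under pseudocounts of 0.1 or 1. Median centring moved 10 and quantile normalization 9. Leaving out a library cannot move a difference by more than that SD, which is pooled from the same libraries, so no count is given. For Mt1 in DNMT_KO EB D2, leaving out a library gave 0.16 to 0.68. Over 270 alternatives the sign was another in 8, all at comparisons with overlapping libraries; among these, Mt2 at TET_KO EB D6 became -0.0187 with centring. In TET_KO, centring gave Mt1 and Mt2 -0.42 and -0.41 at ESC D0, -0.30 and -0.72 at EpiLC D1, -0.92 and -1.34 at EB D4, and for Mt1 0.28 at EB D2 and -1.47 at EB D8. Quantile normalization gave -0.36 and -0.34 at ESC D0, -0.56 and -1.09 at EpiLC D1, and -1.53 for Mt1 at EB D8. In DNMT_KO, quantile normalization gave 0.0651 for Mt1 at ESC D0, 0.37 for Mt2 at EB D2, 1.10 for Mt1 at EB D4 and 4.67 for Mt2 at EB D6, and centring gave 1.11 for Mt1 at EB D4. The cause was not tested.

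Zinc calls in TET_KO, 13 in all, were 22 and 8 with pseudocounts of 0.1 and 1 and 8 with quantile normalization, and in DNMT_KO, 8 in all, were 5 with a pseudocount of 1. The 13 glucocorticoid calls in TET_KO were 21 with a pseudocount of 0.1. With the replicate block the 38 list calls of TET_KO were 40 and the 30 of DNMT_KO were 31; the unnumbered library has no place in the block. Of 9 comparisons with 3 same-numbered pairs, 0 had every correlation of deviations over 0.1, and in 1 every library correlated best with its own number. Leaving out TET_WT replicate 2 at EB D4, an alternative chosen after seeing the data, gave 40 in TET_KO. Of 60 calls of named genes, 40 held in all 12 alternatives and none changed sign. Groups of 2 or 3 libraries limit the precision of every difference.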
